A study of Danio rerio with 11 samples.

Results

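A set of 8 genes that mark macrophages or leukocytes in general was followed in whole zebrafish embryos of a line labelled as an aldh3a1 knockout and in wild-type embryos. They are mpeg1.1, marco, mfap4.1, cd68, spi1b, lcp1, coro1a and grna.1, which is 8 of the 30243 genes listed for each library. They were picked by name as genes of the myeloid lineage, and their identifiers were matched to symbols in a RefSeq gene table. The aldh3a1_KO group has 6 libraries of embryos given as aldh3a1-/- and the WT group has 5 libraries from wild-type embryos, all at 48 hours after fertilisation. Both groups are in the TG(fli1:EGFP) line, whose green reporter is driven in blood vessels by fli1, a gene that early blood cells also use. All embryos were raised in E3 medium. PTU, which blocks pigment, was added to some of it, and its use in each sample is not given in the sources used here. The labels give neither the lesion in aldh3a1 nor the number of embryos behind a library. They also do not say whether replicates are separate clutches, and each p-value refers only to the spread among these 11 samples.

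The first macrophages of the zebrafish embryo form from anterior mesoderm, gather on the yolk, spread through the tissues and become, in the brain, the first microglia. They take up dying cells and microbes, digest them in lysosomes and carry scavenger receptors and pore-forming proteins for that task. The transcription factor Spi1 (also called PU.1) directs myeloid fate, while the actin-binding proteins L-plastin and coronin are used by leukocytes of all kinds to move and engulf. In RNA from whole embryos, fewer cells of a type and less RNA per cell cannot be told apart.

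The aldh3a1_KO libraries held 9.22 to 17.2 M estimated counts (M, mega) and the WT libraries 18.1 to 19.97 M, without overlap. The 13 mitochondrially encoded genes took 5.01% to 25.9% of the counts in aldh3a1_KO and 4.63% to 5.62% in WT, with aldh3a1_KO 1, 5 and 6 the highest. aldh3a1 itself ran from 1.95 to 5.08 CPM (counts as a share of the library total, scaled by TMM), with a median of 3.98, in aldh3a1_KO libraries. In the WT libraries it had 5.65, 5.18, 4.39, 5.85 and 7.88 CPM. The groups overlapped, at a log2 fold change of -0.62 ± 0.27 (SE, adjusted p = 0.0621, edgeR), and since the lesion is not given, the RNA level does not check the genotype. Of 22182 genes tested, 55.3% passed an adjusted p of 0.05, 29.3% as lower and 26.0% as higher in aldh3a1_KO, and the median gene stood at a log2 fold change of -0.12. That median moved to -0.03 with DESeq2 size factors, to -0.26 on the log2(TPM + 1) scale and to -0.36 on the log2(TPM + 0.1) scale, so fold changes of that size cannot be read as changes.

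All 8 macrophage and pan-leukocyte genes passed the filter on low counts and could be tested, and they did not move as a group. mpeg1.1 and coro1a passed the filter only with their WT libraries, and grna.1 only with its aldh3a1_KO libraries. The counts and the median given here include them. The macrophage genes mpeg1.1 and mfap4.1 and the leukocyte actin-binding genes lcp1 and coro1a fell in aldh3a1_KO, by 2.80-fold to 5.13-fold. The granulin gene grna.1 rose 11.3-fold. Wherever a gene is said to rise or fall by a value, or to stand at one, the value is a log2 fold change of aldh3a1_KO over WT. The scavenger receptor gene marco, the lysosomal gene cd68 and the transcription factor gene spi1b did not pass the test. That is 4 lower and 1 higher of 8, against 29.3% and 26.0% of all genes tested, so the count of 5 of 8 called stands close to the 55.3% of all genes. The groups did not overlap in CPM for 5 of the 8, against 37.8% of all genes tested. The median log2 fold change of the 8 was -1.10, against -0.12 over all genes tested.

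**Figure D1:**
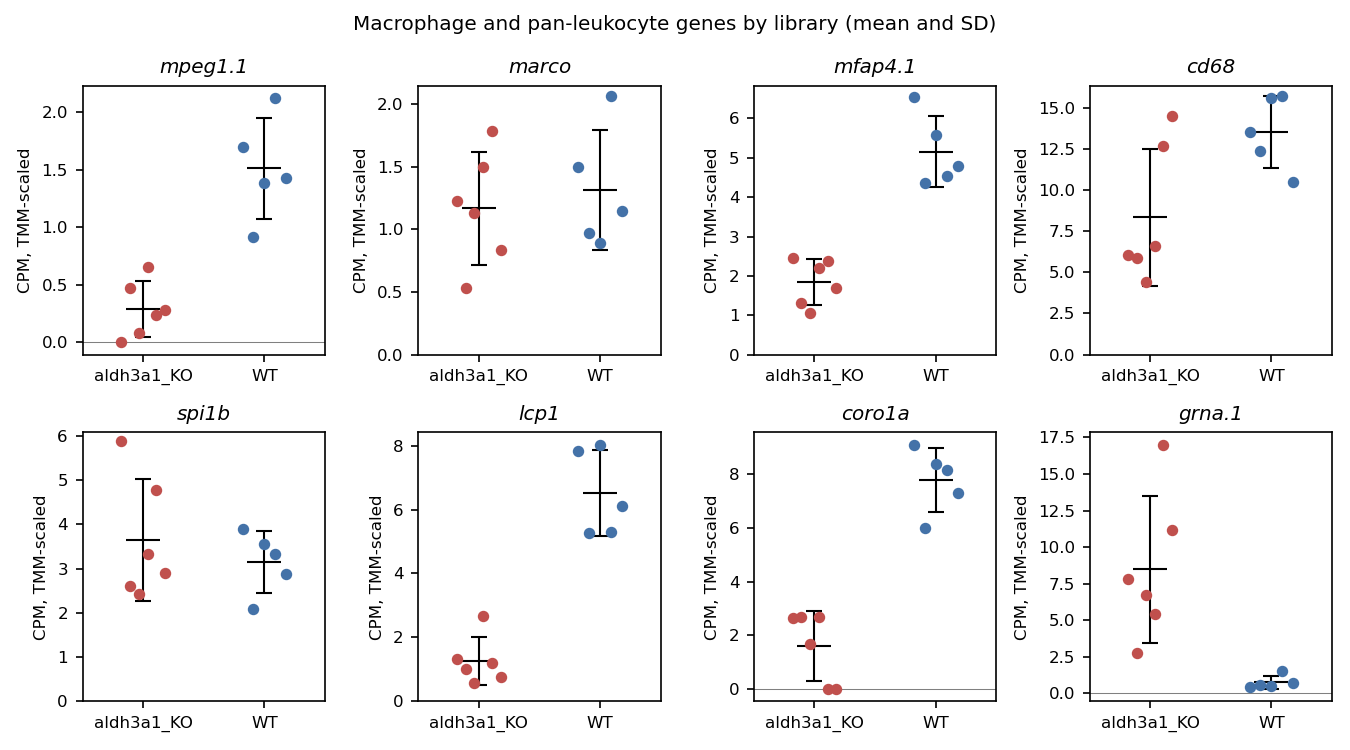
Each panel plots 1 gene, with 1 point per library in CPM scaled by TMM on a linear axis, aldh3a1_KO (n = 6) left of WT (n = 5), and lines for the mean and SD. The points of mpeg1.1, mfap4.1, lcp1, coro1a and grna.1 form separate groups, and those of marco, cd68 and spi1b overlap.

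TPM values, which are scaled by transcript length and by depth, give the order of the genes within each group. In aldh3a1_KO the order was grna.1 at 5.36 ± 2.92 TPM, cd68 at 4.41 ± 1.76, mfap4.1 at 2.04 ± 0.695, spi1b at 1.47 ± 0.390, coro1a at 0.972 ± 0.803, marco at 0.884 ± 0.452, lcp1 at 0.563 ± 0.438 and mpeg1.1 at 0.117 ± 0.111 (mean and SD, n = 6). Each neighbouring pair in that order lay within its SDs. In WT the order was cd68 at 8.63 ± 1.55 TPM, mfap4.1 at 6.89 ± 1.25, coro1a at 5.13 ± 0.719, lcp1 at 3.26 ± 0.724, spi1b at 1.5 ± 0.314, marco at 0.844 ± 0.261, mpeg1.1 at 0.629 ± 0.158 and grna.1 at 0.566 ± 0.312 (mean and SD, n = 5). There cd68, mfap4.1 and coro1a lay within the SDs of their neighbours, as did marco, mpeg1.1 and grna.1, while coro1a and lcp1, lcp1 and spi1b, and spi1b and marco each stood further apart than their SDs reach. The scarcest gene of the WT embryos, grna.1, was thus the highest of the 8 in mean TPM in aldh3a1_KO, and lcp1 moved down to the seventh place.

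mpeg1.1 encodes perforin-2, a pore-forming protein of macrophages, and its promoter is the usual driver of macrophage reporters in zebrafish. It had a lowest value of 0 CPM, a median of 0.259 and a highest of 0.651 in aldh3a1_KO libraries, and 1.7, 0.919, 1.38, 2.12 and 1.43 CPM in WT libraries. Every aldh3a1_KO library lay below every WT library. The log2 fold change was -2.29 ± 0.54 (SE, adjusted p = 0.00275), a 4.89-fold lower level. The depth behind it was small, with 25 estimated counts over the 6 aldh3a1_KO libraries and 153.5 over the 5 WT libraries. The value of 0 CPM was that of aldh3a1_KO 1, with 0.5 estimated counts before rounding. In that library a count of 0 would allow up to 0.263 CPM (3 counts, counting error only). The paralogue mpeg1.2 had 0.829 to 2.26 CPM in aldh3a1_KO and 0.717 to 2.81 CPM in WT, and the 2 groups overlapped. Its log2 fold change was -0.02 ± 0.41 (SE, adjusted p = 0.971). Whether the 2 paralogues differ in their response was not tested.

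mfap4.1 encodes a secreted protein with a fibrinogen-like domain and marks macrophages in zebrafish embryos. It ran from 1.05 to 2.46 CPM with a median of 1.94 in aldh3a1_KO libraries, and had 6.55, 4.36, 5.57, 4.54 and 4.78 CPM in WT libraries. The groups did not overlap, and mfap4.1 fell by 1.49 ± 0.27 on the log2 scale (SE, adjusted p = 0.000425). Of 4 further mfap4 copies that could be tested, 1 passed, as lower, beside 29.3% lower of all genes tested. This was mfap4.2, with 0.887 to 2.64 CPM in aldh3a1_KO against 3.34 to 7.69 CPM in WT, and a difference of -1.59 on the log2 scale (adjusted p = 0.000685). For mfap4.3 the log2 fold change was -1.30 (adjusted p = 0.062). The copies are alike and mfap4.1 overlaps mfap4.2 in the RefSeq table, so how the counts divide between them is uncertain.

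marco encodes a class A scavenger receptor that binds microbes and debris. It had a lowest value of 0.533 CPM, a median of 1.18 and a highest of 1.79 in aldh3a1_KO libraries, and 1.5, 0.968, 0.888, 2.07 and 1.15 CPM in WT libraries. The groups overlapped over most of their range. The log2 fold change was -0.18 ± 0.37 (SE, adjusted p = 0.692), from 84 estimated counts in aldh3a1_KO and 133 in WT, and it took both signs under the alternatives. Of all genes tested, 29.3% fell and 26.0% rose. Among 11 scavenger receptors and relatives, 6 fell and 1 rose, with a median log2 fold change of -0.85 against -0.12 over all genes. The largest shifts were those of scarb2b at -2.94 and scarb2a at -2.26, which encode lysosomal membrane receptors. The class A relatives scara3 at -1.92 and colec12 at -0.85 also fell, while scara5 rose by 1.15.

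cd68 encodes a heavily glycosylated protein of the lysosomal membrane that is abundant in macrophages. It had 6.06, 5.86, 4.44, 6.57, 12.7 and 14.5 CPM in aldh3a1_KO libraries 1 to 6, and 13.5, 12.4, 15.6, 15.7 and 10.5 CPM in WT libraries. The first 4 aldh3a1_KO libraries lay below all WT libraries, whereas aldh3a1_KO 5 and 6 lay within the WT range. The log2 fold change was -0.71 ± 0.29 (SE, adjusted p = 0.0548), so cd68 did not pass. It passed without aldh3a1_KO 5 (-0.76, adjusted p = 0.0434), without aldh3a1_KO 6 (-0.82, adjusted p = 0.0254) and without WT 5 (-0.79, adjusted p = 0.048). Without aldh3a1_KO 1, 5 and 6, the libraries with the largest mitochondrial shares, it was -1.23 (adjusted p = 0.00071). On the log2(TPM + 1) scale cd68 was also lower, by limma, at -0.88 (adjusted p = 0.00419). The call on cd68 therefore depended on the scale and on single libraries, with adjusted p between 0.00071 and 0.187 across the alternatives.

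spi1b encodes a zebrafish form of PU.1, the factor that turns blood progenitors towards the myeloid fate. It had a lowest value of 2.42 CPM, a median of 3.1 and a highest of 5.89 in aldh3a1_KO libraries, and 3.90, 2.08, 3.55, 3.33 and 2.87 CPM in WT libraries. The groups overlapped, with a log2 fold change of 0.21 ± 0.29 (SE, adjusted p = 0.562) that turned to -0.14 without aldh3a1_KO 1, 5 and 6. spi1b overlaps another protein-coding gene in the RefSeq table, whose part in its values was not tested. Its paralogue spi1a rose, with 9.63 to 21.4 CPM in aldh3a1_KO against 4.16 to 6.35 CPM in WT and a log2 fold change of 1.65 (adjusted p = 0.000111). Whether the 2 paralogues differ in their response was not tested. Of 15 transcription factors of myeloid cells and their progenitors, 5 rose, 3 fell and 7 did not pass. The shares over all genes tested were 26.0% higher and 29.3% lower, so these counts are near the background. cebp1, a C/EBP factor of zebrafish myeloid cells, rose by 3.36, and gata2a, a factor of blood and vessel progenitors, by 0.94. cebpa, which drives granulocyte and liver programmes, fell by 1.64. cebpd fell by 1.53 and cebpb by 1.35 (adjusted p = 0.00214 and 0.00217). irf8, which directs macrophage over neutrophil fate in zebrafish, stood at -1.04 on the log2 scale (adjusted p = 0.0763).

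lcp1 encodes L-plastin, which bundles actin filaments and serves as a general leukocyte marker in zebrafish. It had a lowest value of 0.565 CPM, a median of 1.1 and a highest of 2.67 in aldh3a1_KO libraries, and 7.85, 5.27, 8.04, 5.30 and 6.11 CPM in WT libraries. The highest aldh3a1_KO library, aldh3a1_KO 4, was still below the lowest WT library. In the RefSeq table lcp1 overlaps lrrc63, which had at most 0.39 CPM in aldh3a1_KO and 0.454 CPM in WT, and a noncoding gene not analysed here. lcp1 fell by 2.36 ± 0.35 on the log2 scale (SE, adjusted p = 0.000101), 5.13-fold, and passed under all 23 alternatives. The other 2 plastins also fell, pls3 by 2.08 (adjusted p = 1.02e-05) and pls1 by 0.84 (adjusted p = 0.0322), the call on pls1 being lost under 17 alternatives. Both are expressed mainly outside leukocytes, pls3 in many solid tissues and pls1 in epithelia. Of all genes tested, 29.3% fell.

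coro1a encodes coronin-1A, an actin-binding protein of leukocytes. It had 2.64, 2.67, 1.69, 2.67, 0 and 0 CPM in aldh3a1_KO libraries 1 to 6, and 9.10, 6, 8.38, 8.17 and 7.31 CPM in WT libraries. No aldh3a1_KO library reached the WT range, and aldh3a1_KO 5 and 6 stood apart at 0.0510 and 0.0295 estimated counts, where a count of 0 allows up to 0.357 and 0.279 CPM. coro1a fell by 2.22 ± 0.63 on the log2 scale (SE, adjusted p = 0.0086). Without aldh3a1_KO 1, 5 and 6 it was -1.69 (adjusted p = 0.000358). In the RefSeq table coro1a overlaps cldni, a claudin gene, which was at 0 CPM in 4 aldh3a1_KO libraries and at 6.12 and 27.1 CPM in aldh3a1_KO 4 and 6, against 62.8 to 114 CPM in WT. The part of cldni in the coro1a values was not tested. Of the 8 other coronins, coro1ca at -1.39 and coro2aa at -1.40 fell, and coro2bb at 2.49, coro2ba at 1.22 and coro6 at 0.64 rose, the last losing its call under 7 alternatives. Over all genes tested, 29.3% fell and 26.0% rose, so these counts are near the background. The median of those 8 was -0.05, against -0.12 over all genes.

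grna.1 encodes a precursor of granulin peptides, which are cut from progranulin in lysosomes and after secretion. It had 7.82, 2.73, 6.70, 5.40, 17 and 11.2 CPM in aldh3a1_KO libraries 1 to 6, and 0.450, 0.581, 0.493, 1.51 and 0.669 CPM in WT libraries. Every aldh3a1_KO library was above every WT library, and the spread was wider in aldh3a1_KO. grna.1 rose by 3.49 ± 0.49 on the log2 scale (SE, adjusted p = 6.8e-05), 11.3-fold, and 2.77 without aldh3a1_KO 1, 5 and 6 (adjusted p = 0.000715). It passed under all 23 alternatives. grna.1 overlaps the noncoding gene grnas in the RefSeq table, and grnas had 76.5 to 105 CPM in aldh3a1_KO and 52.0 to 62.1 CPM in WT, a log2 fold change of 0.69 (adjusted p = 0.000859). The library strand is not given in the sources used here, so reads of the pair cannot be told apart by strand.

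No full-length progranulin gene rose with it. grnb stood at -0.32 on the log2 scale (adjusted p = 0.0699), with 19.1 to 23.2 CPM in aldh3a1_KO and 22.6 to 29.6 CPM in WT. grna fell by 1.42 (adjusted p = 0.0273), with 0.0807 to 0.791 CPM in aldh3a1_KO and 0.605 to 2.07 CPM in WT, and lost its call under 7 alternatives. It was added to the named genes after its values were seen. Of all genes tested, 29.3% fell. Among 7 granulin precursors and partners that could be tested, with grna outside that list, 5 fell and 2 did not pass. The only precursor among the 7 was grnb, and the 5 that fell were all counted as partners. Those that fell include sort1b at -0.62, which encodes a sortilin that takes up progranulin, and tmem106a at -1.85, a relative of a lysosomal membrane protein tied to progranulin loss in humans. The others that fell were tmem106ba at -0.68, tmem106bb at -3.79 and psap at -0.47. The call on sort1b was lost under 3 alternatives.

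**Figure D2:**
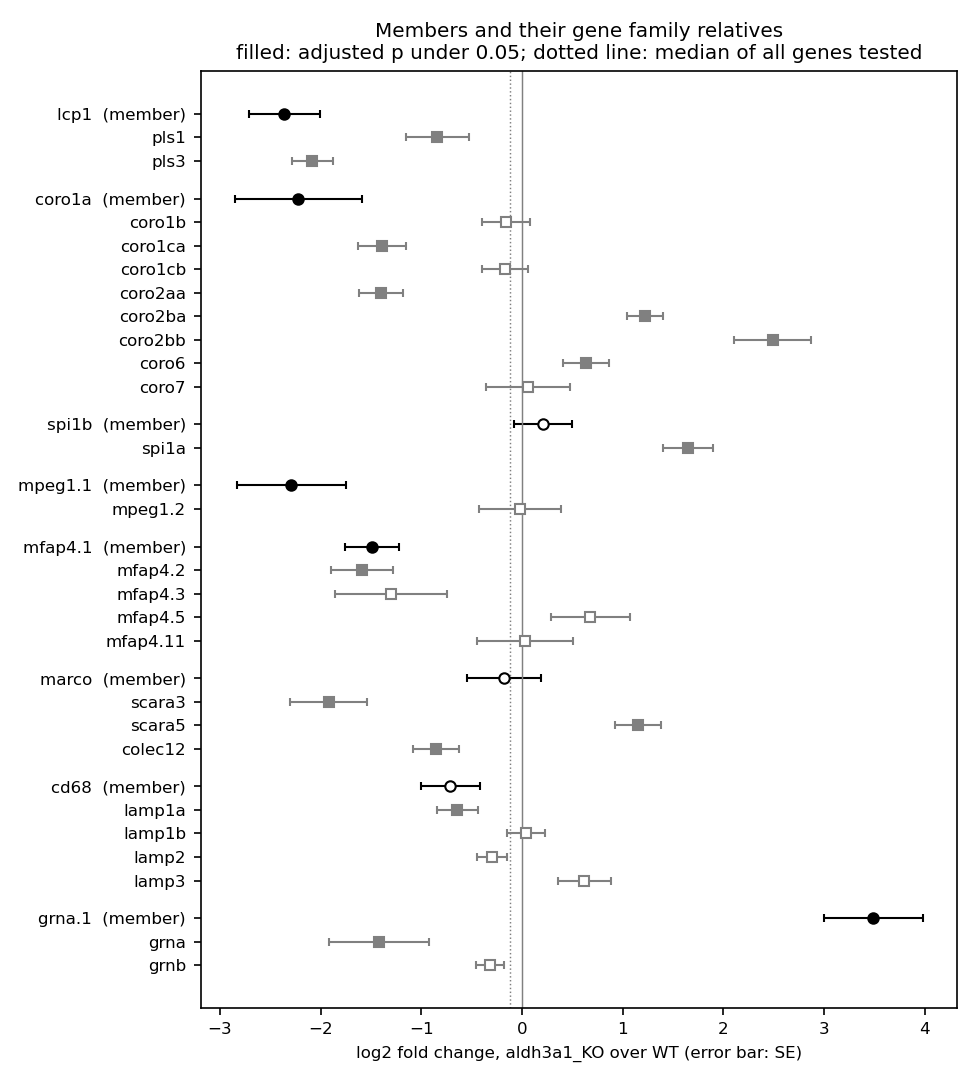
The log2 fold change of each of the 8 genes (circles) and of its family relatives (squares) is plotted as aldh3a1_KO over WT with SE, filled where the adjusted p was under 0.05, and the dotted line marks the median of all genes tested at -0.12. grna.1 at 3.49 stands opposite grna at -1.42 and grnb at -0.32, lcp1 lies beside pls3, and mpeg1.1 lies apart from mpeg1.2.

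The 6 aldh3a1_KO libraries differed among themselves. On the log2(CPM + 0.5) scale, each was set against the mean of the WT libraries. lcp1 was below that mean in all 6, by 1.13 to 2.7, and mfap4.1 by 0.92 to 1.86. aldh3a1_KO 4, which has the lowest mitochondrial share at 5.01%, was nearest to WT for lcp1 and mpeg1.1. In that library lcp1 stood at -1.13, mpeg1.1 at -0.78, mfap4.1 at -1.05, coro1a at -1.38 and grna.1 at 2.31. aldh3a1_KO 5 and 6, at 19.8% and 20.9%, held the lowest coro1a values, the highest grna.1 values and the cd68 values nearest to WT. aldh3a1_KO 1, with the largest share at 25.9%, had the highest spi1b value at 0.83. The part of the mitochondrial share in these values was not tested. With the 3 aldh3a1_KO libraries of lower share alone, mpeg1.1 was -1.83, lcp1 -2.15 and mfap4.1 -1.72 (adjusted p = 0.0152, 0.00193 and 0.00104, edgeR), and marco was -0.29 (adjusted p = 0.616).

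**Figure D3:**
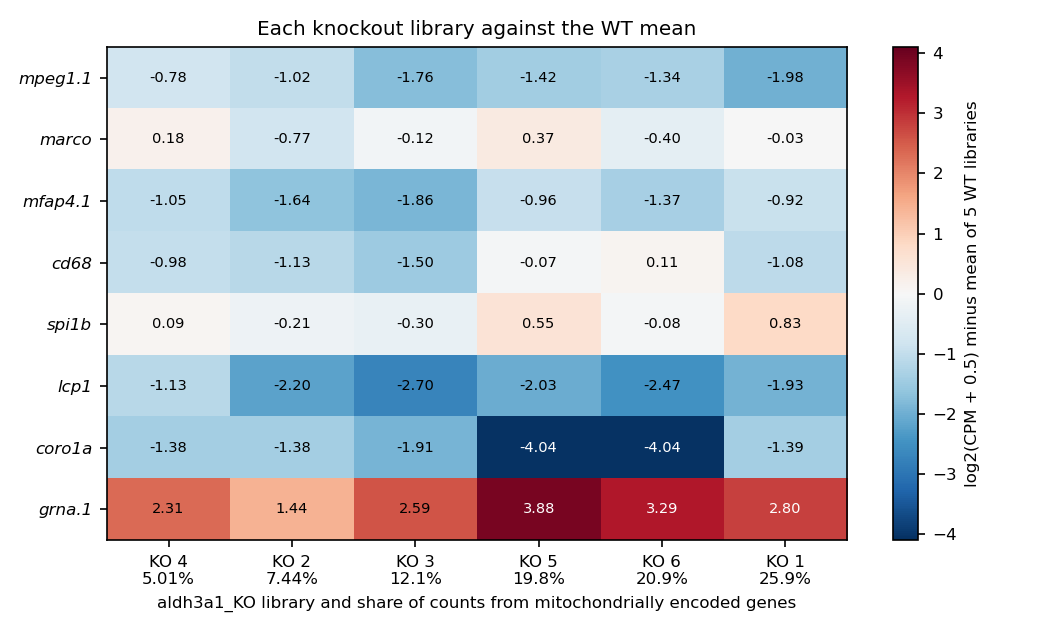
Each cell gives the level of 1 gene in 1 aldh3a1_KO library minus the mean of the 5 WT libraries, in log2(CPM + 0.5), with libraries ordered from left to right by their share of counts from mitochondrially encoded genes (5.01% to 25.9%). lcp1, mfap4.1, mpeg1.1 and coro1a are negative and grna.1 is positive in all 6 libraries, while cd68, spi1b and marco are mixed in sign.

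After removal of group means, the levels of some of the 8 genes went up and down together across the 11 libraries. Pearson's r on the log2(CPM + 0.5) scale was 0.85 between mfap4.1 and spi1b and 0.73 between mfap4.1 and lcp1. It was -0.83 between cd68 and coro1a and -0.74 between coro1a and grna.1, with coro1a at 0 CPM in aldh3a1_KO 5 and 6. mpeg1.1 and mfap4.1, both used as macrophage markers, had an r of 0.07. The genes share libraries, depth and scaling, and these values are descriptions over 11 libraries. By r with the mean of the 8 scaled genes, the nearest of 14571 genes were apold1a at 0.893, slc39a3 at 0.831, pus7l at 0.817, sik1 at 0.796, pamr1b at 0.791, pimr209 at 0.790, tcn2 at 0.787 and sfr1 at 0.777. That mean joins genes whose own r ran from -0.83 to 0.85. Whether the highest of 14571 values over 11 libraries would reach such an r by chance was not tested.

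Other macrophage and microglia markers moved both ways. Of 20 that could be tested, 6 fell, 2 rose and 12 did not pass, with a median log2 fold change of -0.26. Over all genes tested, 29.3% fell and 26.0% rose, so the share of this list that fell is near the background. csf1ra, the receptor gene for colony stimulating factor 1 that macrophages and pigment cells use, had 0.238 to 1.14 CPM in aldh3a1_KO and 0.908 to 3.40 CPM in WT. Only aldh3a1_KO 1 lay within the WT range, and csf1ra fell by 1.83 (adjusted p = 0.00439). ms4a17a.11, a membrane-spanning protein gene, fell by 3.09, and mrc1a, a mannose receptor gene of macrophages and lymphatic or venous endothelium, fell by 2.09. The microglial purine receptor gene p2ry12 rose by 1.29 and the chemoattractant receptor gene cmklr1 by 1.98. slc7a7, needed for zebrafish microglia, stood at -0.14 on the log2 scale (adjusted p = 0.704). Of the markers most used to define macrophages, csf1rb, c1qa and cxcr3.2 were too low to be tested. Another of them, ccl34b.1, was tested and did not pass, at -0.33 (adjusted p = 0.64). The summed level of the list was 151 to 274 TPM in aldh3a1_KO and 324 to 473 TPM in WT. The largest part of it came from fabp4a, a fatty acid binding protein gene that vessels and fat cells also use, at 94.5 ± 31.9 TPM in aldh3a1_KO and 235.9 ± 56.4 TPM in WT (mean and SD, n = 6 and 5). The lipid carrier gene apoeb added 80.6 ± 37.9 TPM in aldh3a1_KO and 107.3 ± 47.4 TPM in WT, and did not pass (adjusted p = 0.78).

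The ligands of that receptor did not move alike. csf1a fell by 2.02 (adjusted p = 1.87e-05), with 1.45 to 2.78 CPM in aldh3a1_KO against 6.5 to 9.57 CPM in WT. csf1b stood at -0.89 on the log2 scale (adjusted p = 0.0649) and il34 at 0.02 (adjusted p = 0.957). csf3b, a granulocyte growth factor gene, rose by 5.32, with 4.62 to 48.9 CPM in aldh3a1_KO and 0.0493 to 0.908 CPM in WT. It had 15.0, 22.2 and 48.9 CPM in aldh3a1_KO 1, 5 and 6, which had the largest mitochondrial shares. In aldh3a1_KO 2, 3 and 4 it had 4.62, 8.31 and 4.81 CPM. Of the 6 growth factor and receptor genes tested, 2 fell, 2 rose and 2 did not pass. Over all genes tested, 29.3% fell and 26.0% rose.

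Leukocyte genes of signalling and motility moved both ways. Across all genes tested, 26.0% rose and 29.3% fell, with a median log2 fold change of -0.12. Of 27 leukocyte genes tested, 13 rose, 6 fell and 8 did not pass, with a median log2 fold change of 0.68. Those that rose include plek (pleckstrin) by 4.3, the integrin genes itgae.1 by 3.35 and itgb2 by 1.51, and the adaptor gene lcp2a by 3.08. plek had 89.2, 97.5 and 57.4 CPM in aldh3a1_KO 1, 5 and 6, the libraries with the largest mitochondrial shares. It had 15.0, 47.5 and 26.0 CPM in aldh3a1_KO 2, 3 and 4. In the same order itgae.1 had 48.2, 47.1 and 34.7 CPM, and then 15.8, 23.9 and 14.3 CPM. Whether these rises follow the mitochondrial share was not tested. ptprc, which encodes CD45, a phosphatase on all leukocytes, rose by 1.15 (adjusted p = 0.0187), a call lost on the TPM scales and without WT 2. Those that fell include tnfaip8l2b, a regulator of immune activation, by 2.28, arhgdig, a regulator of small GTPases, by 1.47 and the GTPase gene rac2 by 1.88. Although more members rose than fell, the summed level was 186 to 308 TPM in aldh3a1_KO and 340 to 466 TPM in WT, without overlap. The largest part of that sum came from cotl1, an actin-binding protein gene, at 151.4 ± 45.2 TPM in aldh3a1_KO and 233.0 ± 22.6 TPM in WT (mean and SD, n = 6 and 5), which did not pass (adjusted p = 0.098) except on the TPM scales and without aldh3a1_KO 1, 5 and 6.

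The phagocyte NADPH oxidase, which makes superoxide in macrophages and neutrophils, was split within 1 enzyme. Of the 5 subunit genes examined, 3 fell and 2 rose, beside 29.3% and 26.0% of all genes tested. The membrane subunit gene cyba fell by 1.27, the cytosolic organiser gene ncf1 by 1.89 and rac2 by 1.88. The catalytic subunit gene cybb rose by 1, with 15.3 to 29.0 CPM in aldh3a1_KO against 9.51 to 13.2 CPM in WT. ncf4, a gene of a cytosolic subunit, rose by 2.

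Genes of the lysosome, where cd68 and the progranulin products act, fell more often than they rose. Of 33 tested, 17 fell, 2 rose and 14 did not pass, beside 29.3% lower and 26.0% higher of all genes tested. Their median log2 fold change was -0.67 against -0.12 over all genes. The 2 that rose were tfec by 1.7 (adjusted p = 0.000187) and acp5a by 2.47 (adjusted p = 0.0026). These counts and the median include the transcription factor genes tfec, tfeb and mitfa, whose products are not lysosomal proteins. Of these, tfeb did not pass and mitfa fell, at -0.86 (adjusted p = 0.00132). The proteinase genes ctsk, ctsba and ctsz fell by 2.25, 1.72 and 1.44, and the acid phosphatase gene acp2 fell by 1.86. These genes are used by many cell types besides macrophages. Among 10 tested genes made up of mpeg1.2, perforins and complement genes of the membrane attack, 3 rose and 7 did not pass. Those that rose were the complement gene c8b at 2.14, the perforin gene prf1.9 at 1.47 and c8g at 1.33 (adjusted p = 0.0474). c8g encodes a chain of complement C8 that is not itself a pore-forming relative of mpeg1.1. The call on prf1.9 was lost without aldh3a1_KO 1, 5 and 6 and after thinning.

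**Figure D4:**
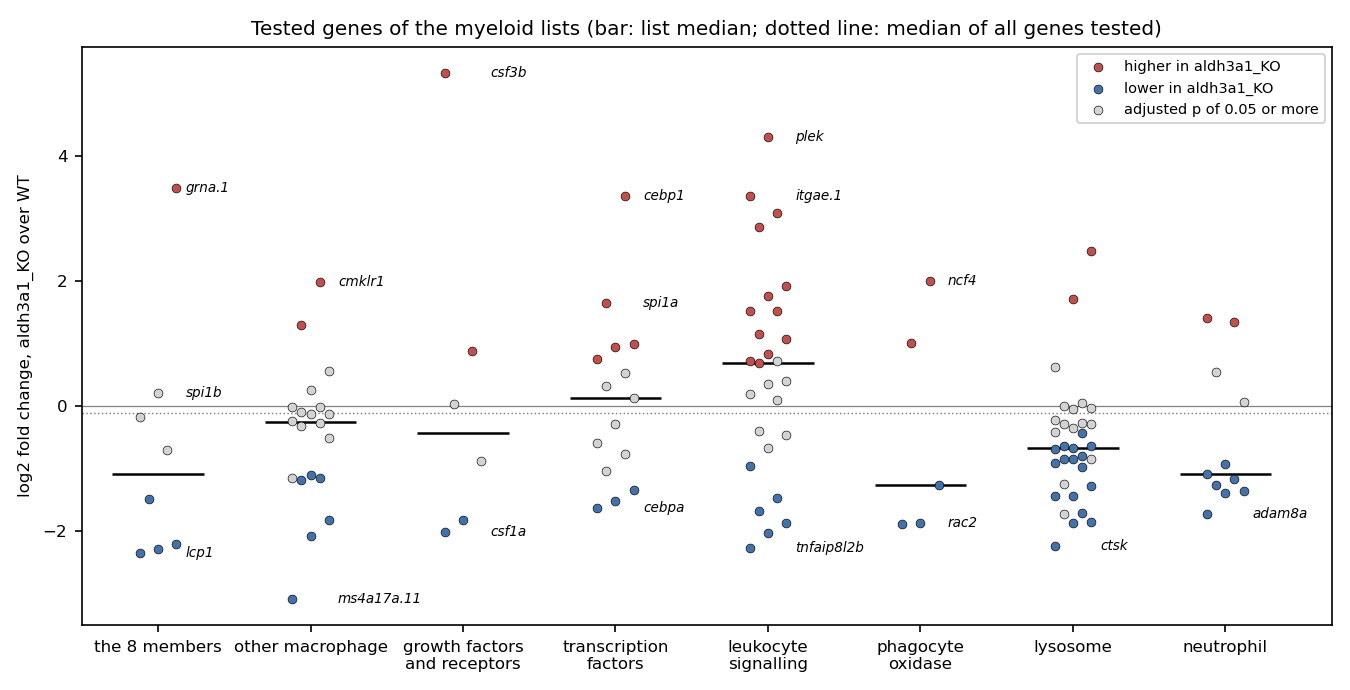
Each point is 1 tested gene at its log2 fold change, aldh3a1_KO over WT, in red where higher, blue where lower and grey where the adjusted p was 0.05 or more, with a bar at the median of each list. The median is -1.10 for the 8 genes and for neutrophil markers, -0.67 for the lysosome list and 0.68 for leukocyte signalling.

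Markers of other blood and vessel cells moved beside the macrophage genes, and their part in the values of the 8 genes was not tested. The shares over all genes tested were 29.3% lower and 26.0% higher. Of 11 neutrophil markers, 7 fell, 2 rose and 2 did not pass, and their summed level was 23.2 to 30.3 TPM in aldh3a1_KO and 54.1 to 84.5 TPM in WT. Those that fell include adam8a at -1.73, npsn at -1.36, lyz at -1.40 and mpx, the myeloperoxidase gene, at -1.17, a call lost under 7 alternatives. The 2 that rose were mmp13a by 1.40 (adjusted p = 0.0353) and abcb9 by 1.34 (adjusted p = 0.000234). lcp1, coro1a and spi1b are also expressed in neutrophils. Of 16 vessel markers, 8 fell and 1 rose, kdrl by 1.74 and pecam1a by 1.72 among those that fell, with a summed level of 50 to 67.1 TPM in aldh3a1_KO and 120 to 253 TPM in WT. fli1, the gene whose promoter drives the reporter of this line, made up the largest part of it, at 27.5 ± 5.53 TPM in aldh3a1_KO and 125.1 ± 46.7 TPM in WT (mean and SD, n = 6 and 5), and fell by 1.9 (adjusted p = 6.2e-05). The vessel marker that rose was tek, by 1.1 (adjusted p = 0.00119).

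Most of the lymphoid and thymus markers that could be tested rose. Of 8 tested, 6 rose, 1 fell and 1 did not pass, with a summed level of 14.6 to 52.4 TPM in aldh3a1_KO against 5.82 to 9.79 TPM in WT. Of all genes tested, 26.0% rose and 29.3% fell. On this list 13 genes were found in the data, and those not tested were too low. cd4-1 was at 0 in every library. il7r, a lymphocyte cytokine receptor gene, rose by 4, the B cell receptor gene cd79b by 2.50, cd8a by 4.34 and pax5, also a gene of the brain, by 2.35. The cd8a value rests on 6 estimated counts over the 5 WT libraries, at 0 to 0.151 CPM. In WT, il7r at 0.25 to 0.504 CPM and cd79b at 0.345 to 0.919 CPM were low as well. cd8a and il7r passed the filter on low counts only through their aldh3a1_KO libraries. Genes as low in both groups were not tested, so the share that rose depends on the filter. Whether any of these values come from lymphoid cells was not tested. tcf7 was the gene that fell, by 2.14 (adjusted p = 0.00111). pax5 made up the largest part of the summed level, at 15.7 ± 11.5 TPM in aldh3a1_KO and 2.97 ± 0.205 TPM in WT (mean and SD, n = 6 and 5). It had 36.5, 74.9 and 35.6 CPM in aldh3a1_KO 1, 5 and 6, which had the largest mitochondrial shares. In aldh3a1_KO 2, 3 and 4 it had 15.7, 15.7 and 10.7 CPM. Of 6 blood progenitor and thrombocyte markers, 4 rose and 2 did not pass, mpl by 2.11 and tal1 by 0.98. Of those that rose, tal1 and lmo2 were already counted among the transcription factors, and ptprc among the leukocyte genes. Erythroid markers were divided, with 5 of 11 lower and 2 higher, among them klf1 at 2.12 and the globin gene hbae1.1 at -1.62.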

How the data were processed

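RNA from whole embryos was sequenced in 11 libraries on a BGISEQ-500, 6 of aldh3a1_KO and 5 of WT, grouped by their labels. Per the submitters' processing notes, the authors used Trim Galore 0.6.4, the quantifier kallisto with its version written as 0.4.6, and the build danRer11. The deposited files hold estimated counts per gene, which are not whole numbers, and TPM, which the authors had already scaled for transcript length and depth. Of the 30243 Entrez identifiers in each, 25812 found a symbol in a table of RefSeq genes on the assembly GRCz12tu. That table gave names, chromosomes and overlaps of genes, but no coordinates are printed because the builds differ. No genome or sequence table was used here.

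Estimated counts were rounded and tested in R 4.3.3 with edgeR 4.0.16. Genes were filtered with filterByExpr, libraries scaled by TMM, and genotype tested by a two-sided quasi-likelihood F test (robust), with Benjamini-Hochberg adjustment over all 22182 genes tested and a threshold of 0.05. Log2 fold changes are aldh3a1_KO over WT, with an SE taken from the F statistic. CPM are scaled by TMM and computed on rounded counts. Intervals and limits for a count of 0 cover counting error only. The fit was checked on simulated counts with known changes before use. It called 83 of 99 genes changed 4-fold, 21 of 98 changed 2-fold and 5 of 21594 unchanged. Most 2-fold changes were thus missed, so a gene that did not pass may still differ by that much. Far fewer genes were changed there than the 55.3% called in the data, and the check does not cover that case.

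Alternatives were upper-quartile factors, size factors of DESeq2 1.42.0, the DESeq2 Wald test, other filters, limma 3.58.1 on log2(TPM + 1) and log2(TPM + 0.1), the replicate number as a block, leaving out each library, leaving out aldh3a1_KO 1, 5 and 6, leaving out mitochondrially encoded genes, and thinning to the smallest library. The members, gene lists and alternatives were chosen with earlier results of these data known. Some genes stand on more than 1 list, such as mrc1a, rac2, ptprc, tal1 and lmo2, and are counted on each. Named genes are the 8 members, up to 4 genes per list with the smallest adjusted p, any gene of a family list, and the 8 genes whose pattern is most like the mean of the members, among genes with a mean of at least 2 CPM. Named outside that rule, after their values were seen, are aldh3a1, grna, grnas and cldni, and csf1b, il34, irf8, slc7a7, csf1rb, c1qa, cxcr3.2, mpx, lyz, itgb2, lcp2a, ncf1, gata2a, cotl1, fabp4a, apoeb and cd4-1, which belong to the lists. The list genes fli1, mmp13a, tcf7, cebpb, cebpd, tfec, tfeb, mitfa, acp5a, ccl34b.1 and tek were also named outside that rule, after their values were seen. Python 3.11.15 with matplotlib 3.10.9, pandas 2.3.3 and numpy 2.4.6 drew the plots. Each library held between 9.22 and 19.97 M estimated counts.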

Additional observations from a re-analysis of the deposited data

Results flagged for a closer look

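In 6 cases a single library lay far from the others of its group, judged by the gap to the nearest library as a share of the group's whole range, on log2(CPM + 0.5). Of 160 groups examined, chance alone would place about 1 in 20 this far out. In aldh3a1_KO, pecam1a was lowest in aldh3a1_KO 5 at 2.03 CPM, a gap of 0.642, and mpl was highest in aldh3a1_KO 1 at 4.13 CPM, a gap of 0.643. In WT, grna.1 was highest in WT 4 at 1.51 CPM, a gap of 0.724, and plek was highest in the same library at 5.04 CPM, a gap of 0.812. WT 2 held the lowest ctsk at 17.1 CPM, a gap of 0.738, and the lowest slc7a7 at 1.55 CPM, a gap of 0.721. The WT 4 value of grna.1 remained below the lowest aldh3a1_KO value of 2.73 CPM. Without WT 4, grna.1 had a log2 fold change of 3.91.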

How the results depend on the processing

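The count of genes called was 12269 and ran from 10772 after thinning to 13403 with no filter, with 11034 to 12505 when 1 library was left out. The count of members called was 5 and ran from 4 to 6. It was 4 where at least 1 CPM in 5 libraries was required, as mpeg1.1 then could not be tested, and 6 in the alternatives where cd68 passed and mpeg1.1 could be tested. It was 5 after thinning, where cd68 passed and mpeg1.1 could not be tested. mfap4.1, lcp1, coro1a and grna.1 kept their direction and stayed under an adjusted p of 0.05 in all 23 alternatives, and mpeg1.1 in the 21 in which it could be tested. Fold changes of low genes shrink on the log2(TPM + 1) scale, where mpeg1.1 was -0.54, lcp1 -1.47 and grna.1 1.92.

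The labels do not say whether replicate numbers pair the samples, and aldh3a1_KO 6 has no WT partner. Same-numbered libraries had correlations of deviations from the group means of 0.178, 0.167, 0.0224, 0.109 and 0.025. The WT library with the highest correlation bore the same number for aldh3a1_KO 2, and another number for aldh3a1_KO 1, 3, 4 and 5. These values have no reference to be judged against and cannot decide whether the samples are paired. With a replicate block, 11125 genes and 6 members were called, cd68 among them at -0.91 (adjusted p = 0.0316), and sort1b, pls1 and grna lost their calls. The alternatives were not followed for cebpb, cebpd, tfec, tfeb, mitfa, acp5a, ccl34b.1, mmp13a, abcb9, tek and tcf7. They were also not followed for c8g, psap, tmem106ba, tmem106bb and grnas, so the stability of these values is not known. Of the genes followed whose sign turned, none had an adjusted p under 0.05 in any alternative. marco was 0.01 on log2(TPM + 1) with and without the filter and -0.30 to 0.08 with 1 library left out. spi1b was -0.02 on log2(TPM + 1) with and without the filter, -0.04 on log2(TPM + 0.1) and -0.14 without aldh3a1_KO 1, 5 and 6. il34 was -0.14 on log2(TPM + 1) with and without the filter, -0.25 on log2(TPM + 0.1), -0.16 after thinning and -0.18 to 0.20 with 1 library left out. mpeg1.2 was 0.12 with upper-quartile factors, 0.09 with DESeq2 size factors, 0.08 by the Wald test, 0.03 with no filter, 0.00 with the filter of 1 CPM, 0.11 with the replicate block and -0.20 to 0.38 with 1 library left out. slc7a7 was 0.03 with the replicate block, 0.09 without aldh3a1_KO 1, 5 and 6 and -0.34 to 0.07 with 1 library left out. apoeb was -0.33 to 0.13 with 1 library left out. The cause of these turns was not tested. Depth limits the members of low count, such as mpeg1.1 and marco with 25 and 84 estimated counts over all aldh3a1_KO libraries, and grna.1 with 75.49 over all WT libraries.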

Other observations

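The relation between the deposited estimated counts and TPM of marco differed between libraries. Estimated counts per TPM, as a log2 ratio to the median gene of the same library, ran from -1.04 to -0.39 in aldh3a1_KO and from -0.50 to -0.27 in WT. For cd68 the same measure was -0.35 to -0.32 in aldh3a1_KO and -0.34 to -0.32 in WT, and for lcp1 it was 0.00 to 0.03 in aldh3a1_KO and 0.01 to 0.03 in WT. The measure follows the length that kallisto assigned to the gene's transcripts, and the deposited gene tables do not give the transcripts themselves.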
